A study of Mus musculus with 6 samples.

Results

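Ubiquitin-specific proteases are the largest family of enzymes that take ubiquitin off proteins. They cut the bond between ubiquitin and a lysine of the target, and so can spare a protein from the proteasome, reverse a ubiquitin signal on a receptor or a histone, or take apart ubiquitin chains. In striated muscle, where the ubiquitin-proteasome system turns over contractile proteins, the family is known for members that change with atrophy and with the circadian clock. The members were taken by name from the deposited table, as the protein-coding genes whose symbol starts with Usp and a digit. This gave 56 of 54532 genes, and 3 non-coding or pseudogene rows with such symbols were left out. One of the 56, Usp6nl, is named for its likeness to a ubiquitin protease but encodes a GTPase-activating protein for Rab GTPases. Of the 56 genes, 34 were abundant enough to test, 15 had reads but were not tested, and 7 were listed at 0 in all libraries.

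The 6 samples were myocardium of C57BL/6 wild-type mice, 18 weeks old, with hypertrophic hearts. The TuD group (n = 3) had received AAV9-anti-miR-199a TuDs, an adeno-associated virus that delivers tough decoys, which are RNA hairpins that bind a microRNA and hold it away from its targets. The control group (n = 3) had received AAV9-EGFP, the same kind of virus carrying a fluorescent protein. The labels do not give the sex of the mice, the way hypertrophy was induced or the dose of virus, and do not say that each sample is a separate animal, so p-values measure the spread between these samples only.

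The libraries held 16.0 ± 0.731 M (megareads) assigned to genes in TuD hearts and 18.1 ± 0.115 M in control hearts (SD, n = 3 each). Libraries stood apart in ways the labels do not describe. The summed FPKM of 4 Y-linked genes was 0.0254, 0.00711 and 12.5 in TuD replicates 1, 2 and 3, against 8.32 to 9.59 in control hearts. The FPKM of Xist, the RNA of the inactive X chromosome, was 1.42, 0.128 and 0.0166 in the same TuD replicates, and it was listed at 0 in all control hearts. No control resembled TuD replicates 1 and 2 in the Y-linked sum, and values from a fit with a covariate for this split are given beside the results. The share of reads from mitochondrially encoded genes was 17.5%, 12.6% and 11.1% in TuD replicates 1, 2 and 3, against 12.0%, 5.31% and 8.29% in control replicates 1, 2 and 3. Cardiomyocyte markers were abundant in every library, with a summed level over 5 genes of 6527 to 6784 normalised FPKM in TuD hearts and 5413 to 6151 in control hearts. Adipocyte markers (4 genes) summed to 3.62 to 10.6 in TuD hearts and 0.0684 to 0.820 in control hearts, and atrial markers (4 genes) to 2.14 to 114 in TuD hearts and 0.612 to 0.727 in control hearts. No marker was at 0 in all libraries. The sums of the endothelial, erythroid, fibroblast, macrophage, and pericyte and smooth muscle lists overlapped between the groups, and the part of any of these cells in the results was not tested.

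The decoys were directed at miR-199a, whose hairpins yield a 5p and a 3p arm. Their mature sequences (RefSeq, GRCm38.p6) are shown because the sites searched in the Usp genes were read from them, with the seed, bases 2 to 8, in capitals.
mmu-miR-199a-5p: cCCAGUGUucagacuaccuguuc
mmu-miR-199a-3p: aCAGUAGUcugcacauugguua

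The 2 arms have different seeds. Sites were the reverse complement of the seed (ACACTGG for 5p, ACTACTG for 3p) or of bases 2 to 7 followed by A (CACTGGA for 5p, CTACTGA for 3p), searched on the sense strand of the longest annotated 3' UTR. Of the 34 tested Usp genes 11 (32.4%) held at least 1 site for either arm, against 31.7% of 9549 tested genes with an annotated 3' UTR. Usp13 and Usp30 held sites for both arms. The sites of the 5 Usp genes that had a site and a lower level in TuD hearts are shown, since these are the members in which the 2 properties meet. Each window is read 5' to 3' on the gene's own strand, with the site in capitals and its mm10 position before it.
Usp13, 3p site, chr3:32937277-32937283, plus strand: cttcaacaagtagtgtgACTACTGca
Usp13, 5p site, chr3:32935470-32935476, plus strand: tggatcaggagcaggacACACTGGta
Usp19, 5p site, chr9:108502044-108502050, plus strand: cttctgtcactcagaggACACTGGct
Usp20, 3p site, chr2:31022578-31022584, plus strand: agcccttagctcattgcACTACTGtg
Usp22, 5p site, chr11:61152393-61152399, minus strand: cctcagcgtgctgtctcCACTGGAca
Usp36, 5p site, chr11:118260807-118260813, minus strand: gtttctctaatatgcagACACTGGct

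Each is a match of 7 bases and a description only. It was not measured here whether any of them is bound.

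Levels are given as normalised FPKM, fragments scaled for transcript length and library size as deposited, divided by a size factor per library, so that genes of different length can be compared. Members of the family differed widely in abundance. In control hearts the highest mean levels were those of Usp2, Usp13, Usp28, Usp5, Usp19 and Usp4, in that order. Control values of Usp2 and Usp13 overlapped, as did those of Usp28 and Usp5, while Usp13 lay above Usp28, Usp5 above Usp19 and Usp19 above Usp4 in every control library. Usp2 exceeded 94.9% of protein-coding genes in control hearts, and Usp19, the fifth in that order, exceeded 92.6% of them. At the other end stood 7 members without a read. Usp51, Usp17ld, Usp17lc, Usp17le, Usp17lb, Usp44 and the Y-linked Usp9y were listed at 0 in every library, Usp9y also in the 4 libraries that carried other Y-linked transcripts.

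**Figure D1:**
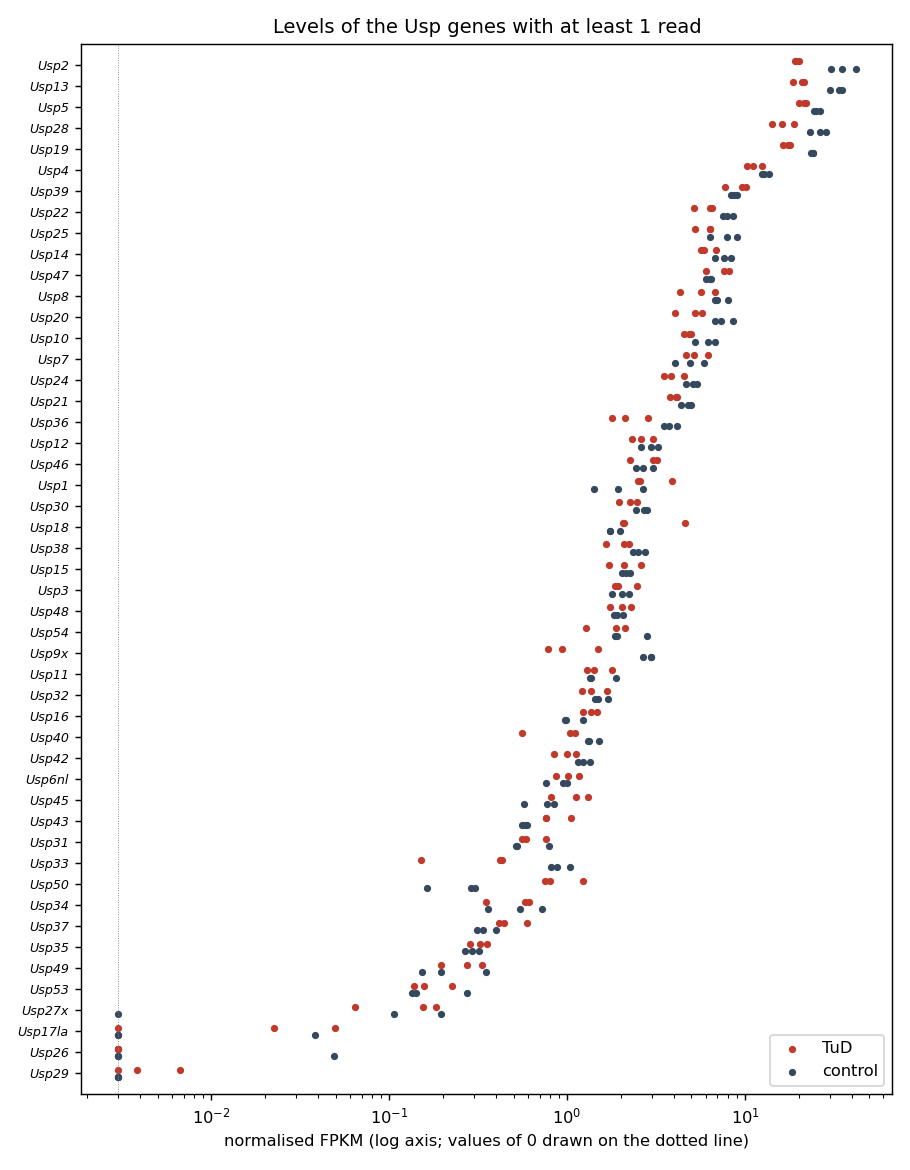
Normalised FPKM (log axis) of the 49 Usp genes with at least 1 read, 1 point per library, TuD in red and drawn slightly above control in dark blue, ordered by mean level. Usp2, Usp13, Usp28 and Usp19 show the TuD points to the left of all control points, and values of 0 are drawn on the dotted line.

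The question of the design is which transcripts differ between hypertrophic hearts with the decoys and those with EGFP. Members were selected on symbol and gene type and on no measured value, but the family was chosen with results of this comparison known, so the fold changes and adjusted p-values below describe it and are no support for a family-wide effect. Of the 34 tested Usp genes none rose and 8 fell (23.5%) at an adjusted p under 0.05, and 26 did not pass. Of all 10460 tested genes 15.0% rose and 14.3% fell, 29.3% together, and rescaling to TPM turned these counts from 1565 higher and 1498 lower to 442 higher and 4214 lower. At an unadjusted p under 0.05 the limma test had 14 members lower and 0 higher, and 21.2% of all tested genes were lower and 21.7% higher at that threshold. The 26 members that did not pass had log2 fold changes below 0 in 17 and above 0 in 9. The median log2 fold change was -0.24 over the 34 members and 0.01 over all tested genes. Groups that did not overlap were seen in 16 members with TuD on the low side, a pattern held by 24.4% of all tested genes, and in 2 with TuD on the high side, held by 23.5%. With a covariate for the Y-linked split, which leaves the estimate to TuD replicate 3 alone, Usp2, Usp9x, Usp13 and Usp36 still passed as lower, Usp18 passed as higher, and Usp19 (-0.40), Usp20 (-0.37), Usp22 (-0.27) and Usp28 (-0.45) no longer passed but stayed below 0. In bulk tissue, fewer cells of a type and less RNA per cell cannot be told apart.

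The summed level of the members was lower in TuD hearts. It adds up the same values as above and was not compared with a sum over other genes. The summed normalised FPKM of the 56 genes was 212, 192 and 223 in TuD hearts, against 286, 273 and 260 in control hearts. The 5 members with the highest mean levels made up 44.7%, 46.8% and 44.4% of that sum in TuD hearts, against 53.7%, 52.6% and 52.0% in control hearts. The groups did not overlap in either measure. Of the 6 members with the highest mean level over all libraries (Usp2, Usp13, Usp5, Usp28, Usp19 and Usp4), 4 were among the 8 that fell.

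**Figure D2:**
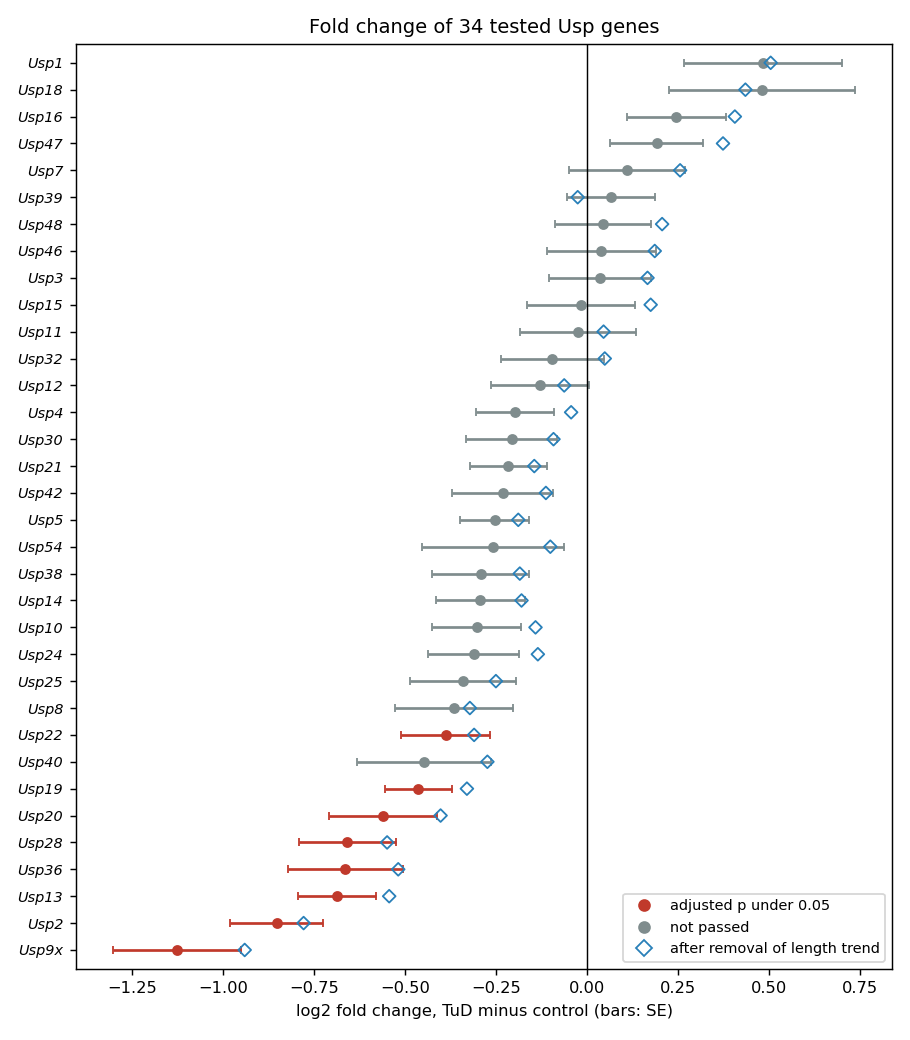
Log2 fold change (TuD minus control) with its SE for the 34 tested Usp genes, red where the adjusted p is under 0.05 and grey where it is not, with open diamonds for the value after removal of each library's trend with gene length. The values run from -1.13 for Usp9x to 0.48 for Usp1, and the 8 red points all lie below 0.

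Each member was put in only 1 group by role. The groups were drawn up with earlier results of these data known, so their shares are a description only. Of the 3 members grouped here under muscle 2 fell, against 14.3% of all tested genes. Usp2, whose transcript follows the circadian clock in mouse tissues, had 20.2, 19.0 and 19.2 normalised FPKM in TuD hearts, against 41.8, 35.3 and 30.5 in control hearts. The TuD libraries were close to each other and lay well below the lowest control library. This is a log2 fold change of -0.85 with an SE of 0.13 (adjusted p = 0.00411), and ± on log2 fold changes gives the SE from here on. The gene (ENSMUSG00000032010) lies on chromosome 9 from 44067021 to 44095627 in mm10, plus strand, and shares 4.15% of its exonic bases with genes on the opposite strand, the highest share among the 8. Usp19, an enzyme with an endoplasmic reticulum form that is induced in wasting rat muscle, had 17.4, 16.3 and 17.9 normalised FPKM in TuD hearts, against 24.0, 24.0 and 23.6 in control hearts. Its controls were nearly equal, and its log2 fold change was -0.46 ± 0.09 (adjusted p = 0.00968). Usp25, which has a muscle-specific form in human tissue, had a log2 fold change of -0.34 (adjusted p = 0.111) and groups that overlapped.

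Of the 3 members grouped here under free or proteasome-bound ubiquitin chains, 1 fell, against 14.3% of all tested genes. It was Usp13, a relative of Usp5, while Usp5 and Usp14 themselves did not pass. Usp13, which deubiquitinates the autophagy protein Beclin 1 in human cells, had 21.0, 18.6 and 21.4 normalised FPKM in TuD hearts, against 33.9, 34.9 and 30.2 in control hearts. Its highest TuD library lay far below its lowest control library. Usp13 fell by 0.69 ± 0.11 on the log2 scale (adjusted p = 0.00461), and it lies on chromosome 3 from 32817546 to 32938071 in mm10, plus strand. Usp5, its closest relative, which takes apart chains that are attached to no protein, had 20.0, 22.0 and 21.6 normalised FPKM in TuD hearts, against 25.1, 26.4 and 24.6 in control hearts. Its groups did not overlap either, but its log2 fold change of -0.25 did not pass (adjusted p = 0.0754). The ratio of Usp13 to Usp5 within a library was 1.05, 0.848 and 0.991 in TuD hearts, against 1.35, 1.32 and 1.23 in control hearts, without overlap. Usp14, which sits on the proteasome, had a log2 fold change of -0.29 (adjusted p = 0.103). In the annotation used here for exon overlaps, the exons of Usp14 partly overlap Thoc1 on the opposite strand. That annotation gives Usp14 8345 exonic bases, against a length of 5974 in the deposited table. Whether the bases counted for Usp14 overlap Thoc1 is therefore not known.

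**Figure D3:**
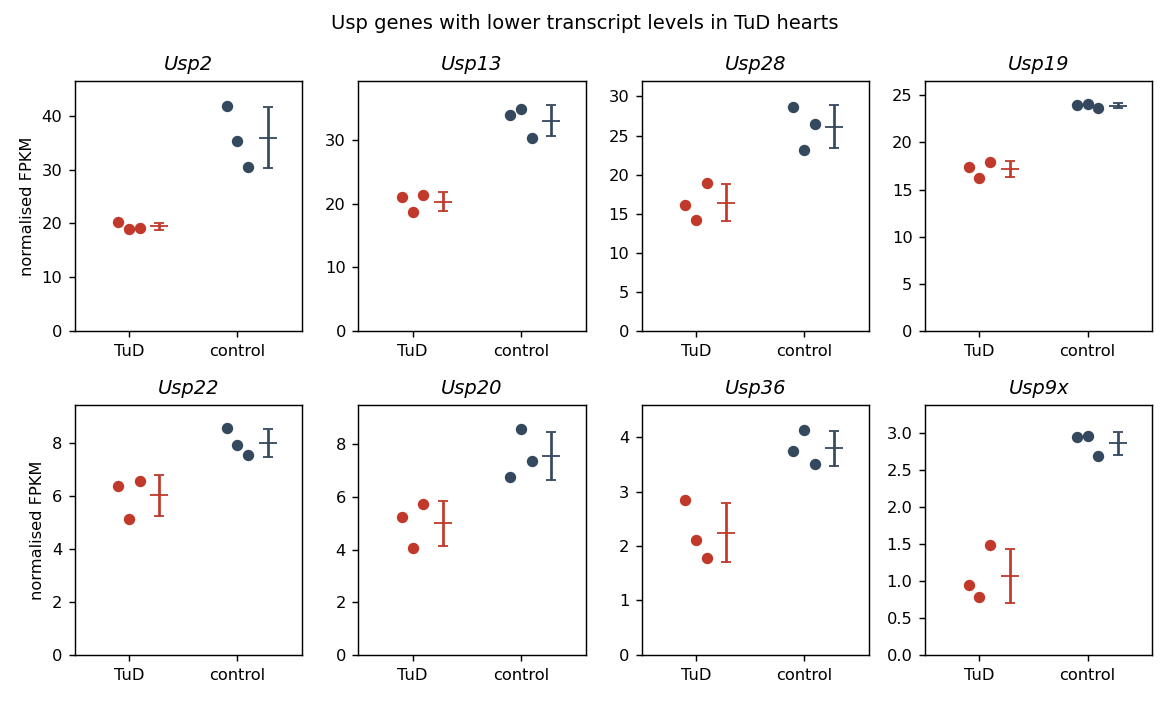
Normalised FPKM of the 8 Usp genes with a lower level in TuD hearts (adjusted p under 0.05), 1 point per library with TuD in red on the left and control in dark blue on the right, and the mean with SD (n = 3 each) beside them. In each panel the 3 TuD points lie below the 3 control points, and the y axes start at 0.

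Usp28 was the 1 of 7 tested members with roles in DNA repair and the cell cycle that fell, a share equal to the 14.3% of all tested genes. This enzyme, which stabilises the Myc protein in human cells, had 16.1, 14.3 and 18.9 normalised FPKM in TuD hearts, against 28.6, 23.2 and 26.5 in control hearts. The highest TuD library stayed below the lowest control library. Usp28 thus fell by 0.66 ± 0.13 on the log2 scale (adjusted p = 0.0101). It lies on chromosome 9 from 48985375 to 49042517 in mm10, the chromosome that also carries Usp2 and Usp19 (108490602 to 108502337), all on the plus strand. Its close relative is Usp25, and the ratio of Usp28 to Usp25 overlapped between the groups, at 2.54, 2.71 and 2.98 in TuD hearts and 3.19, 2.93 and 4.19 in control hearts.

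Usp1, Usp12 and Usp46 share an activating partner, the WD-repeat protein Wdr48. Usp1, which removes ubiquitin from the DNA repair proteins FANCD2 and PCNA, had the highest log2 fold change of the 34 tested members, 0.48 ± 0.22 (adjusted p = 0.125). Its values were 2.58, 2.52 and 3.88 normalised FPKM in TuD hearts, against 2.67, 1.42 and 1.94 in control hearts, and the groups overlapped. Usp12 and Usp46 had log2 fold changes of -0.13 (adjusted p = 0.499) and 0.04 (adjusted p = 0.860). Wdr48 itself fell, to 1.26, 1.15 and 1.64 normalised FPKM in TuD hearts, against 2.55, 2.77 and 2.25 in control hearts. The fall of Wdr48 was -0.71 ± 0.15 as a log2 fold change (adjusted p = 0.0103). Wdr20, a further partner of Usp12 and Usp46, fell as well, with a log2 fold change of -0.57 (adjusted p = 0.0119). The transcripts of the activators thus passed the test while those of their 3 enzymes did not, and the difference between them was not tested.

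Usp7, which deubiquitinates p53 and its ligase MDM2 in human cells, had 5.17, 4.65 and 6.23 normalised FPKM in TuD hearts, against 5.87, 4.03 and 4.92 in control hearts, with a log2 fold change of 0.11 (adjusted p = 0.628). Usp47, which acts on DNA polymerase beta in human cells, had 7.65, 6.05 and 8.17 normalised FPKM in TuD hearts, against 6.34, 6.01 and 6.47 in control hearts, with a log2 fold change of 0.19 (adjusted p = 0.280). Both overlapped between the groups. Usp48 had a log2 fold change of 0.04.

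Among members that act on histones, 2 of 6 tested genes fell, against 14.3% of all tested genes. Usp22 is the enzyme of the deubiquitinating module of the SAGA complex, which removes ubiquitin from histone H2B. It had 6.39, 5.14 and 6.56 normalised FPKM in TuD hearts, against 8.57, 7.91 and 7.54 in control hearts. The groups were apart, but its log2 fold change of -0.39 ± 0.12 was close to the threshold (adjusted p = 0.0459). Leaving out a single library other than TuD replicate 3 ended that call, with adjusted p-values up to 0.126. Usp22 lies on chromosome 11 from 61151785 to 61175055 in mm10, minus strand. Atxn7l3, a scaffold of the same module, had 6.33, 6.88 and 6.77 normalised FPKM in TuD hearts, against 9.39, 9.86 and 9.17 in control hearts, and fell with a log2 fold change of -0.48 (adjusted p = 0.0100). Eny2, another subunit, rose with a log2 fold change of 0.78 (adjusted p = 0.0186). The rise of Eny2 did not pass without TuD replicate 1, without control replicate 2 or 3, without the filter on low values, after rescaling to TPM or with the covariate for the Y-linked split (0.45 to 0.99 over all alternatives, adjusted p up to 0.103).

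Usp36, a nucleolar enzyme, had 2.85, 2.10 and 1.78 normalised FPKM in TuD hearts, against 3.76, 4.13 and 3.50 in control hearts. The TuD libraries were spread but all lay below the controls. Usp36 fell by 0.66 ± 0.16 on the log2 scale (adjusted p = 0.0178), and the call ended without TuD replicate 2 or without control replicate 2, with adjusted p-values up to 0.0661. It is on chromosome 11 as well, from 118259651 to 118290244, minus strand. Usp16, which removes ubiquitin from histone H2A, was 1 of the 2 tested members whose TuD values all lay above the controls. It had 1.37, 1.24 and 1.47 normalised FPKM in TuD hearts, against 1.23, 0.991 and 0.979 in control hearts, and a log2 fold change of 0.25 (adjusted p = 0.204). Usp3, Usp21 and Usp42 had log2 fold changes of 0.04, -0.22 and -0.23, and none passed.

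Of the 4 tested members with roles in TGF-beta signalling 1 fell, against 14.3% of all tested genes. Usp9x, which deubiquitinates SMAD4 in human cells, had 0.941, 0.776 and 1.49 normalised FPKM in TuD hearts, against 2.95, 2.96 and 2.68 in control hearts. Its log2 fold change of -1.13 ± 0.18 was the lowest of the tested members (adjusted p = 0.00465), and it rested on 757 reads in TuD hearts and 2484 in control hearts. The groups lay far apart, and the highest TuD library was the one with Y-linked transcripts. The gene is on the X chromosome from 13071498 to 13173328 in mm10, plus strand. It passed the filter through its 3 control libraries and 1 TuD library, so at its TuD level alone it would not have been tested. Usp4, Usp11 and Usp15 act on the TGF-beta type I receptor in human cells. Usp4 had 10.3, 11.2 and 12.4 normalised FPKM in TuD hearts, against 12.8, 13.7 and 12.5 in control hearts. These groups were just apart and its log2 fold change of -0.20 did not pass (adjusted p = 0.190). Usp11 and Usp15 both had a log2 fold change of -0.02.

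Of the 4 tested members that act at endosomes and on receptors 1 fell, against 14.3% of all tested genes. Usp20, which with Usp33 spares beta-adrenergic receptors from degradation in human cells, had 5.22, 4.04 and 5.72 normalised FPKM in TuD hearts, against 6.76, 8.57 and 7.35 in control hearts. The groups were apart. Its log2 fold change was -0.56 ± 0.15 (adjusted p = 0.0256), and it passed in the full set and without TuD replicate 3 or control replicate 1, but not without any one of the other 4 libraries (adjusted p up to 0.0902). The gene lies on chromosome 2 from 30982279 to 31023586 in mm10, plus strand. Usp33 was too low to be tested. It had 0.420, 0.150 and 0.429 normalised FPKM in TuD hearts, against 1.04, 0.816 and 0.881 in control hearts, from 152 reads and 507 reads in all, and shares 24.4% of its exonic bases with genes on the opposite strand. Usp8, the endosomal enzyme that acts on the EGF receptor, and Usp10 had log2 fold changes of -0.36 and -0.30, and Usp32 had -0.10.

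Outside these groups, Usp18 stood out by its spread. This enzyme strips the ubiquitin-like protein ISG15 and is induced by interferon. It had 2.07, 2.08 and 4.61 normalised FPKM in TuD hearts, against 1.75, 1.98 and 1.73 in control hearts. TuD replicate 3, the TuD library with Y-linked transcripts, held most of the difference, and the log2 fold change of 0.48 ± 0.26 did not pass (adjusted p = 0.185). Without that library it was 0.15. Usp39, a spliceosome protein that has lost protease activity, had 10.1, 9.64 and 7.77 normalised FPKM in TuD hearts, against 9.02, 8.72 and 8.35 in control hearts. Its log2 fold change was 0.07 (adjusted p = 0.705). Usp30, which opposes the removal of damaged mitochondria, had a log2 fold change of -0.21, and Usp24, Usp38, Usp40 and Usp54 had -0.31, -0.29, -0.45 and -0.26. None of these passed.

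The 15 members with reads that were not tested were Usp6nl, Usp45, Usp43, Usp31, Usp33, Usp50, Usp34, Usp37, Usp35, Usp49, Usp53, Usp27x, Usp17la, Usp26 and Usp29, with mean levels from 0.00175 to 0.956 normalised FPKM. The Usp17l genes are related copies, and how reads that match more than 1 of them were counted was not examined. Usp26 had 4 reads, all in 1 control library, and Usp29 had 3 reads, all in TuD libraries. Without the filter on low values, limma passed Usp50 as higher, the only Usp gene higher in that setting. It had 0.802, 1.22 and 0.755 normalised FPKM in TuD hearts, against 0.290, 0.163 and 0.305 in control hearts, from 132 reads and 45 reads in all. The groups did not overlap, and its log2 fold change there was 0.91 (adjusted p = 0.0304). Usp33 reached -0.78 in the same setting (adjusted p = 0.0502). Usp50 and Usp33 were chosen for mention after their values were seen.

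The tested Usp genes were long. Their median length in the deposited table was 6948 bases, against 3852.5 bases for all tested genes, and 31 of the 34 were longer than the median tested gene. Across all 10460 tested genes the log2 fold change declined with log10 length (Pearson r = -0.39, Spearman rho = -0.37). Over the 34 Usp genes the correlations were closer to 0 (r = -0.25, rho = -0.10). These genes spanned 2445 to 16599 bases, against 56 to 116825 for all tested genes, so the correlations of the 2 sets are not directly comparable. Genes of 1 table share their libraries and are not independent replicates. The shortest 12 members, from 2445 to 5736 bases, had -0.23 as their median log2 fold change, and the 4627 tested genes of that length range had -0.03. The middle 11, from 5832 to 7841 bases, had -0.23, and the 1348 genes of that range -0.13. The longest 11, from 8628 to 16599 bases, had -0.26, and the 1025 genes of that range -0.18. The numbers of members that fell were 2, 4 and 2 in these length ranges. Among all tested genes the shares that fell were 15.0%, 20.6% and 23.3%. So the Usp medians differed little between ranges, while those of all genes declined with length.

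**Figure D4:**
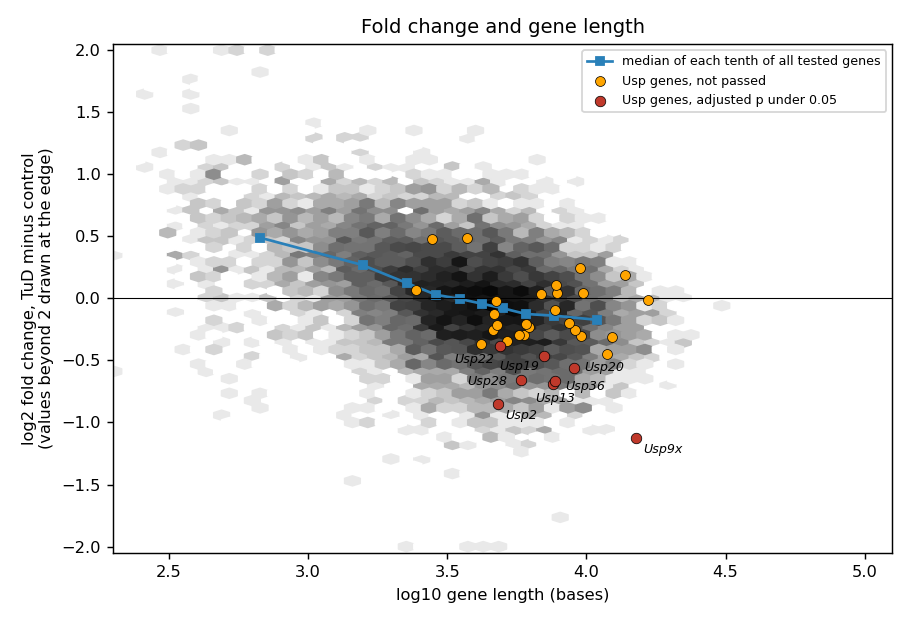
Log2 fold change (TuD minus control) against log10 gene length in bases for all tested genes (grey density), with medians over equal-sized length classes of the tested genes (blue squares) and the 34 tested Usp genes (orange, red where the adjusted p is under 0.05). The blue line declines with length, and most Usp points, among them the 8 red ones, lie below it.

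With the length trend taken out of every library, 6 of the 8 calls remained (Usp2, Usp9x, Usp13, Usp19, Usp28 and Usp36) and those of Usp20 and Usp22 ended. Usp16 (0.41, adjusted p = 0.0444) and Usp47 (0.37, adjusted p = 0.0345) then passed as higher. In that setting 11.4% of all tested genes rose and 12.7% fell. The median over the Usp genes became -0.12. The log2 fold changes of the members also declined with their log2 mean level (Pearson r = -0.39, Spearman rho = -0.37, n = 34). The mean level and the fold change come from the same libraries.

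Genes of the 5 other deubiquitinase families, with relatives that carry the fold, were compared as lists. The lists do not separate active proteases from relatives without activity. Of their 28 tested members 8 rose and 2 fell (15.0% and 14.3% of all tested genes), with a median log2 fold change of 0.16 and a median length of 3413.5 bases. After rescaling to TPM this split turned to 2 higher and 8 lower, with a median of -0.16 where that of all tested genes was -0.33. Without control replicate 3 there were 5 higher and 2 lower, and with the covariate for the Y-linked split 3 higher and 1 lower (median 0.15). Uchl5 and Psmd14, the proteasome-bound deubiquitinases besides Usp14, rose. Uchl5 had 5.27, 6.32 and 7.26 normalised FPKM in TuD hearts, against 2.72, 3.43 and 3.37 in control hearts, a log2 fold change of 0.88 (adjusted p = 0.00545). Psmd14, which cuts chains off substrates as they enter the proteasome, had a log2 fold change of 0.52 (adjusted p = 0.00740). Uchl3 (0.66), Zranb1 (0.79), Otulin (0.48), Brcc3 (0.49) and Eif3h (0.47) rose, as did Cops6 (0.39), and Otud1 (-1.06) and Otud3 (-0.59) fell. The calls of Uchl5 and Otud1 held under all 21 alternatives, while those of Brcc3, Eif3h, Cops6 and Otud3 each ended without control replicate 2, and under 4 to 11 alternatives in all. Psmd14, Uchl3 and Otulin did not pass after rescaling to TPM, nor did Otulin after the length trend was taken out. The call of Zranb1 ended only with the covariate for the Y-linked split, and that of Psmd14 ended there too. That covariate rests the estimate on TuD replicate 3 alone, and gave 0.46 for Psmd14 and 0.60 for Zranb1. The 3 genes of the Usp fold with other names, Cyld, Pan2 and Uspl1, did not pass (0.24, 0.22 and -0.11).

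**Figure D5:**
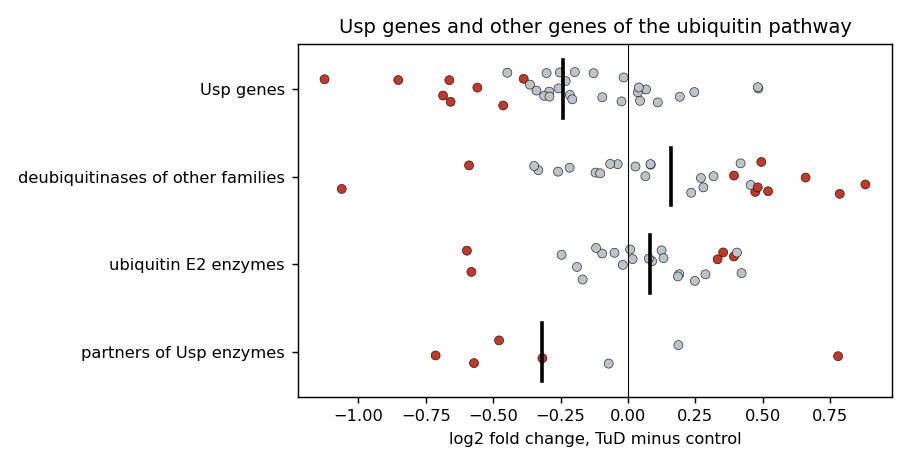
Log2 fold change (TuD minus control) of the tested members of 4 lists, 1 point per gene, red where the adjusted p is under 0.05, with a black bar at the list's median. The Usp genes have their median at -0.24 and no red point above 0. The genes of the other deubiquitinase families, with relatives that carry the fold, have theirs at 0.16 and red points on both sides.

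Rps27a, which encodes ubiquitin fused to a ribosomal protein, rose with a log2 fold change of 1.68 (adjusted p = 0.00194), and the polyubiquitin gene Ubb rose with 0.67 (adjusted p = 0.0162). The call of Rps27a held under all 21 alternatives. That of Ubb ended under 6 of them, among them leaving out control replicate 1 or 2 and rescaling to TPM, with values from 0.26 to 0.80. Uba1, the main enzyme that activates ubiquitin, fell with a log2 fold change of -0.34 (adjusted p = 0.0413), but did not pass without any one library other than TuD replicate 2, nor after the length trend was taken out. Of 24 tested conjugating enzymes 3 rose and 2 fell (15.0% and 14.3% of all tested genes), with a median of 0.08. The falls were those of Ube2o (-0.60) and Ube2d1 (-0.58), and Ube2a (0.39) was among the rises. None of the rises passed without control replicate 1, 2 or 3, with the covariate for the Y-linked split or after rescaling to TPM, where 8 were lower. Of 7 tested partners of Usp enzymes 4 fell and 1 rose (14.3% and 15.0% of all tested genes), with a median of -0.32. Besides those above, G3bp1, the partner of Usp10, had a log2 fold change of -0.32 (adjusted p = 0.0408), and did not pass without any one library other than TuD replicate 3. With a covariate for the Y-linked split none of the 7 partners passed, with log2 fold changes of -0.49 for Wdr48, -0.50 for Wdr20, -0.46 for Atxn7l3, -0.24 for G3bp1 and 0.76 for Eny2. G3bp1, Eny2, Otud3 and Cops6 were named after their values were seen.

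Of the 11 tested Usp genes with a miR-199a site in the 3' UTR, 5 fell (Usp13, Usp19, Usp20, Usp22 and Usp36) and 6 did not pass (Usp8, Usp15, Usp25, Usp30, Usp46 and Usp47). Of the 23 without a site 3 fell and 20 did not pass. Of all tested genes with a 3' UTR, 19.0% of the 3023 with a site and 13.0% of the 6526 without one fell. Among the same genes, 8.93% of those with a site and 15.4% of those without one rose. The median log2 fold change was -0.36 with a site and -0.22 without. Over all tested genes with a 3' UTR the medians were -0.08 with a site and 0.03 without. Genes with and without a site were not matched for length, and log2 fold change declined with log10 gene length over all tested genes (Pearson r = -0.39). The part of length or of the sites in these contrasts was not tested. The 2 members with sites for both arms had -0.69 (Usp13) and -0.21 (Usp30). The 3 members that fell without a site were Usp2, Usp28 and Usp9x.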

How the data were processed

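The 6 libraries were made from total RNA, per the labels' protocols. The submitters' processing notes name HISAT2 2.0.5, featureCounts 1.5.0-p3 and the build mm10, with no order or role. The annotation release and strand setting are not given in the sources used here. The values deposited by the authors are FPKM. Multiplied by gene length and divided by the value of 1 read, 100% of them came out whole to within 0.05 of a read. That value was taken in each library from the smallest product above 0 and refined by least squares. The library sizes it gives were 0.943 to 1.06 of the sums of those reads. The program limma-voom was run on those reads as an alternative (1548 genes higher and 1716 lower of 10460).

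Each FPKM column was scaled by a median-of-ratios factor (0.985 to 1.02). A gene was tested where at least 3 of the 6 samples had an FPKM of 1 or more. The test was limma 3.58.1 in R 4.3.3 (lmFit, eBayes with a trend) on log2(normalised FPKM + 0.5), two-sided, with p-values adjusted over all 10460 genes by the Benjamini-Hochberg method and a threshold of 0.05. Fold changes are on that scale, which understates changes of low genes. The members, lists and tests were chosen with earlier results of these data known. Values per sample are given for members past the threshold, the 6 highest and 6 lowest fold changes and the 6 highest mean levels, and other lists are represented by up to 3 genes each, by p-value. Genes named beyond this rule are said to be chosen after their values were seen, and members named with a fold change alone complete the account of the family. Sites and exon overlaps used GENCODE M21 (GRCm38), where 55 of 56 members had the same coordinates. Alternatives covered scaling, pseudocount, filters, variance model, reads, length, the Y-linked split, protein-coding genes only and each library left out. Size factors from genes above 0 in all samples were added after the data were seen. Some genes of the ubiquitin pathway are not reported here. The fit was tested on reads simulated with the same spread setting for all genes. The simulated reads had no length trend and no Y-linked split, so that test does not cover these features. Python 3.11.15, numpy 2.4.6, pandas 2.3.3 and, for figures, matplotlib 3.10.9 were used.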

Additional observations from a re-analysis of the deposited data

How the results depend on the processing

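The calls of Usp2, Usp13 and Usp9x held under every alternative in which the gene was tested, and those of Usp19 and Usp28 also without each library in turn. Rescaling to TPM gave 442 genes higher and 4214 lower, 22 Usp genes lower with a Usp median of -0.57 (all tested genes -0.33), and turned Usp39 (-0.30), Usp47 (-0.17), Usp7 (-0.24), Usp46 (-0.29), Usp3 (-0.27), Usp48 (-0.27) and Usp16 (-0.0255) below 0. Without a filter 1010 genes were higher and 956 lower, with 1 Usp gene higher and 5 lower. A filter at FPKM 5 left 15 Usp genes, with a median of -0.34 and a correlation with length of 0.11. With the length trend removed 2 Usp genes were higher, the median was -0.12 and the correlation -0.0822, and Usp39 (-0.0250), Usp15 (0.18), Usp11 (0.0461) and Usp32 (0.0494) changed sign. A covariate for the Y-linked split, which rests the estimate on TuD replicate 3 alone, gave 651 genes higher and 529 lower, with 1 Usp gene higher (Usp18, 1.14, adjusted p = 0.0132) and 4 lower (Usp2, Usp9x, Usp13 and Usp36), a median of -0.14, and sign changes of Usp39 (-0.15), Usp15 (0.24), Usp11 (0.18) and Usp32 (0.0946). The cause of these differences was not tested.

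Leaving out each library in turn gave 882 to 1703 genes higher and 762 to 1610 lower. Of the Usp genes 0 were higher and 5 to 9 lower, 5 of them without TuD replicate 2 or control replicate 2. Estimates near 0 crossed it in Usp39 (-0.00397 to 0.18), Usp46 (-0.0435 to 0.18), Usp48 (-0.0310 to 0.13), Usp11 (-0.12 to 0.0931), Usp15 (-0.15 to 0.11), Usp3 (-0.0663 to 0.11) and Usp7 (-0.0182 to 0.23). The replicate numbers did not pair the samples (correlations of same-numbered samples 0.06, 0.09 and -0.06), and with the replicate number as a block 1462 genes were higher and 1199 lower, with 0 Usp genes higher and 6 lower. Usp33, Usp50 and the other untested members did not reach an FPKM of 1 in 3 samples. Read number alone did not set them apart, since the long Usp34 had 444 reads in TuD hearts and 573 in control hearts. The tested Usp18 had 386 and 293.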
